A study of Equus caballus with 6 samples.

Results

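Mitochondrial ribosomal proteins are the nuclear-encoded subunits of the ribosome inside mitochondria, and their transcripts were compared between lamellar hoof tissue with laminitis and normal lamellar hoof tissue of horses. Members were all genes whose single bovine symbol in the array's annotation starts with MRPL or MRPS, and each gene was represented by its brightest probe set, the one with the highest mean log2 signal over the 6 arrays. This gave 67 genes with 84 probe sets, out of 9155 genes with 13292 probe sets of a single symbol. Laminitis was represented by 3 arrays (replicates 1, 3 and 4) and normal tissue by another 3 (replicates 2, 3 and 4), each a bovine GeneChip carrying total RNA from a right foot. How laminitis arose, the age of the horses and whether each array stands for a separate horse are not given in the sources used here, so the p-values rest on the scatter among these 6 arrays, part of which may be technical. Values on laminitis arrays are given in the order of replicates 1, 3 and 4 and values on normal arrays in the order of replicates 2, 3 and 4.

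The mitochondrial ribosome translates the few messages of the mitochondrial genome, which encode core subunits of the respiratory chain and ATP synthase. Its RNA comes from mitochondrial DNA, while all of its proteins are made in the cytosol and imported. Some of these proteins descend from the bacterial ribosome and others were added in mitochondria, and nascent chains leave through a tunnel of the large subunit that faces the inner membrane. Lamellae join the epidermis to the dermis inside the hoof wall, and laminitis is the disease in which this attachment fails.

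The median signal of an array was between 86.7 and 96.6 on the deposited linear scale. Markers of the labelled tissue were present, with KRT14 of basal keratinocytes at 469, 503 and 509 in laminitis, against 609, 397 and 143 in normal tissue, and the collagen gene COL1A1 at 1487 or more on every array. Keratinocyte markers differed in direction, with log2 differences of 0.60 for KRT14, 0.11 for KRT5 and 0.078 for PKP1. KRT15 was at -0.13 and PERP at -0.67. The arrays were not alike in cell type markers. The summed signal of 5 neutrophil markers ran from 1558 to 13072 in laminitis and from 570 to 1061 in normal tissue, with the lowest laminitis sum on replicate 4. This sum was carried by S100A8 and S100A9, which inflamed epidermis also makes, with log2 differences of 4.37 and 4.52. The other 3 markers were negative, ELANE at -1.05, MPO at -0.44 and FCGR3A at -0.28, and the median of the list was -0.28. The summed signal of 8 fibroblast markers ran from 8682 to 30207 in laminitis and from 9223 to 31340 in normal tissue, and both highest values were on a replicate 4. These markers differed in direction. The log2 differences were 0.31 for COL1A1, 0.35 for COL1A2, 0.42 for LUM and 0.35 for PDGFRA. They were -0.21 for COL3A1, -0.69 for FBLN1, -0.58 for MFAP4 and -1.61 for DCN, and the median of the list was 0.049. DCN had 724, 787 and 1199 in laminitis, against 2365, 1685 and 4898 in normal tissue. The summed signal of 6 macrophage markers ran from 683 to 798 in laminitis and from 581 to 681 in normal tissue. CYBB at 2.20 and MSR1 at 0.59 were positive, the others negative, and the median was -0.21. For 5 adipocyte markers, most of them dim, the sum ran from 218 to 256 in laminitis and from 289 to 360 in normal tissue. Their median was -0.017. In the remaining lists the sums of the groups overlapped. In whole tissue, fewer cells of a type and less RNA per cell cannot be told apart. The part of these markers in the results below was not tested.

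Of the 67 genes, 53 were bright enough to test, meaning that the probe set lay above its own array's median on at least 3 of 6 arrays, and 40 of them did so on all 6. None of the 53 passed in limma with p-values adjusted by Benjamini-Hochberg across every probe set that entered the fit, with 0 called higher (background 0% of 6143 tested genes) and 0 called lower (background 0%). The smallest adjusted p among them was 0.424. At an unadjusted limma p under 0.05 there was 1 gene higher in laminitis, MRPL37, where the background was 5.26% of tested genes, and 3 lower, MRPL22, MRPL4 and MRPS11, where it was 4.51%. These 3 are 5.66% of the tested members, a share near the background. With 1 array left out, the higher count ran from 0 to 2 and the lower count from 0 to 4, with 2 higher without laminitis replicate 4 or normal replicate 4, 0 higher without normal replicate 2 or 3, 0 lower without normal replicate 2 and 1 lower without normal replicate 3. The groups did not overlap for 7 members. In MRPL52 all laminitis values were above all normal values, against a background of 8.71%, and 6 members had every laminitis array below, 11.3% of those tested, against a background of 8.35%.

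The log2 difference, laminitis minus normal, was positive for 24 members and negative for 29, a split that became 31 to 22 after centring each array on its median. Centring shifts all genes by the same amount, and the median became 0.055 for the members and 0.054 for all tested genes. Without centring the members' median was -0.028, with quartiles at -0.23 and 0.25. Over all tested genes the median was -0.028, with quartiles at -0.26 and 0.22. Values of single members ran from -1.10 for MRPL43 to 1.43 for MRPL37, the 2 members that differed at least 2-fold in the mean. For 42 members, 79.2%, the mean difference was within 1.5-fold, compared with 84.0% of all tested genes. The 95% interval of limma lay inside a 2-fold difference in either direction for 34 members, 64.2%, and the median half-width of a member's interval was 0.59 on the log2 scale. For the other 19 members a 2-fold difference in at least 1 direction lay within the interval, so a difference of that size was not excluded by these arrays. They include MRPL37, MRPL22, MRPL4 and MRPS11, whose intervals do not hold 0.

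**Figure D1:**
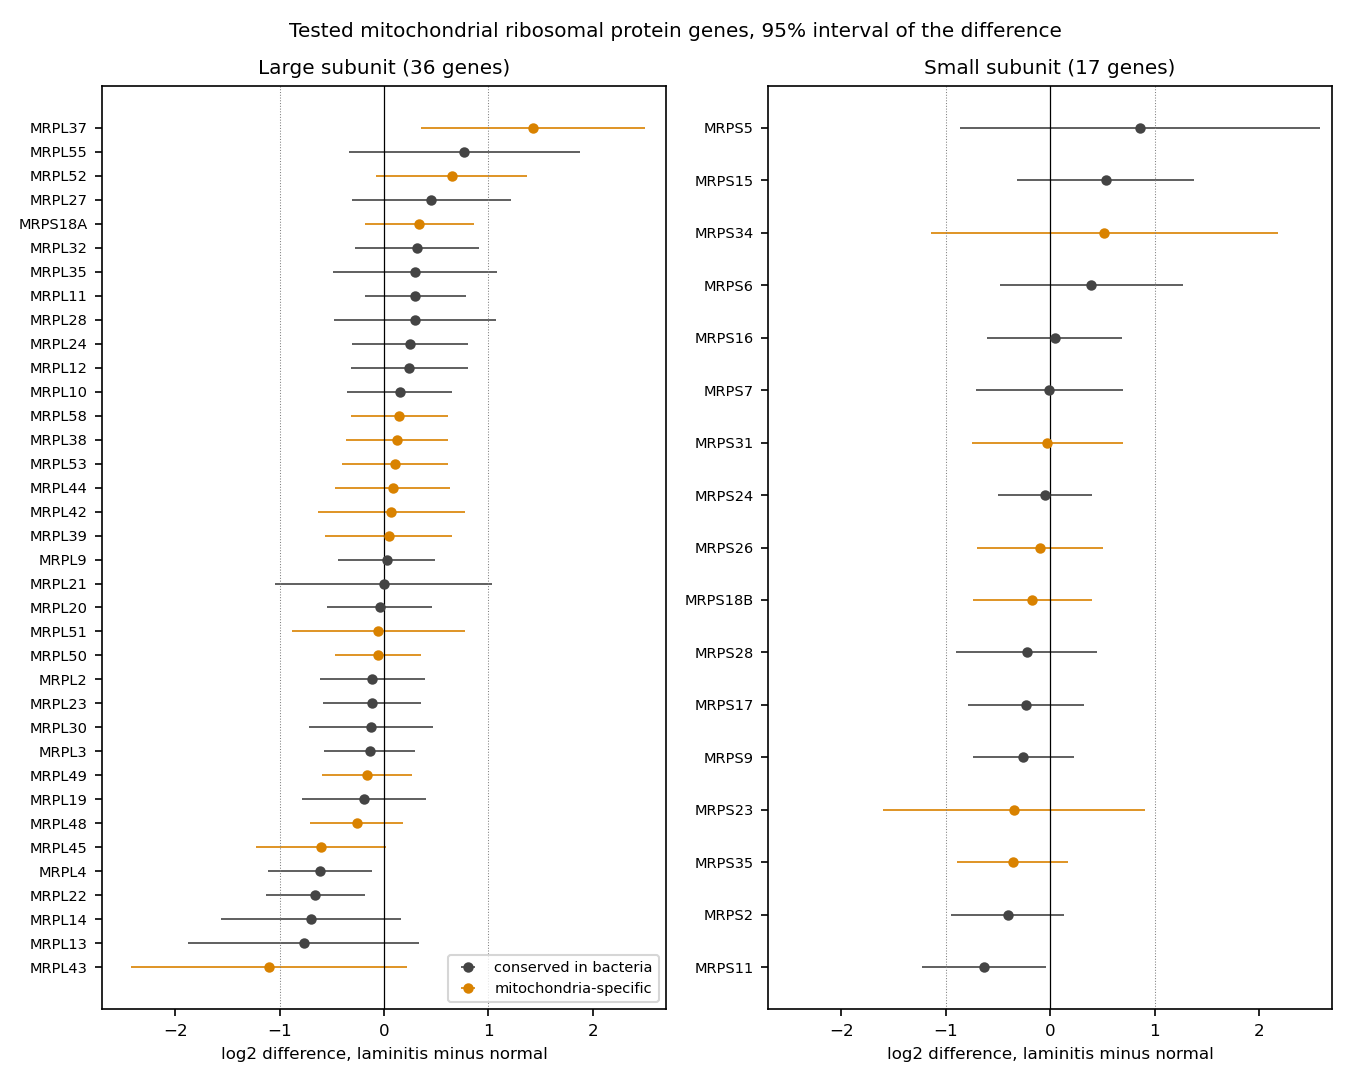
Log2 difference between laminitis and normal tissue (laminitis minus normal, x axis) for the 53 tested genes, 36 of the large subunit (left) and 17 of the small subunit (right). Points are limma estimates, lines are 95% intervals and colours separate proteins conserved in bacteria from mitochondria-specific ones, with MRPS18A and MRPS18B among the latter. The intervals of 49 genes include 0, and dotted lines mark a 2-fold difference.

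Single genes are ordered by role, and roles within a subunit were not counted or tested as groups. At the exit tunnel of the large subunit, MRPL22, whose bacterial counterpart forms part of the tunnel wall, had signals of 349, 327 and 268 in laminitis, against 554, 463 and 469 in normal tissue. Every laminitis array lay below every normal array, and the log2 difference was -0.66 ± 0.20 (SE, n = 3 per group, limma adjusted p 0.424). MRPL4, which reaches into the tunnel from the other side, had signals of 215, 162 and 155 in laminitis, against 266, 297 and 245 in normal tissue. Its groups were also apart, with a difference of -0.61 ± 0.21 (limma adjusted p 0.464). MRPL45, a mitochondria-specific protein that holds the tunnel exit to the inner membrane, had 133, 136 and 185 in laminitis, against 221, 300 and 177 in normal tissue. These groups overlapped through laminitis replicate 4 and normal replicate 4, at a difference of -0.60 ± 0.26 (limma adjusted p 0.524). MRPL23 and MRPL24, which surround the tunnel exit, had smaller differences. MRPL23 had 686, 629 and 504 in laminitis, against 678, 638 and 636 in normal tissue, a difference of -0.11 ± 0.20 that became 0.014 without laminitis replicate 4. MRPL24 differed by 0.25 ± 0.24.

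The stalk of the large subunit recruits translation factors. MRPL12, the stalk protein that also binds the mitochondrial RNA polymerase, had 478, 305 and 308 in laminitis, against 290, 295 and 318 in normal tissue. Only laminitis replicate 1 stood above the normal arrays, and the difference was 0.24 ± 0.24, or 0.029 without that array. MRPL11, at the base of the stalk, had 319, 327 and 249 in laminitis, against 223, 231 and 271 in normal tissue, a difference of 0.30 ± 0.21 (limma adjusted p 0.663). MRPL10, which ties the stalk to the ribosome, differed by 0.15 ± 0.21. The groups overlapped for all 3, and none had an unadjusted limma p under 0.05.

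Other conserved proteins lie near the catalytic centre or the subunit interface. MRPL27, whose bacterial counterpart reaches towards the catalytic centre, had 545, 388 and 233 in laminitis, against 249, 294 and 264 in normal tissue. Laminitis replicates 1 and 3 lay above all normal arrays and replicate 4 below them, so the difference was 0.45 ± 0.32, or 0.16 without replicate 1 and 0.78 without replicate 4. MRPL2 and MRPL3, core proteins of the large subunit, had differences of -0.11 ± 0.21 and -0.14 ± 0.18, and MRPL2 was at 0.012 without normal replicate 2. MRPL14, an interface protein to which the assembly factor MALSU1 binds, had 145, 67.0 and 140 in laminitis, against 201, 132 and 220 in normal tissue. Its difference was -0.70 ± 0.37 (limma adjusted p 0.588), or -0.34 without laminitis replicate 3.

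MRPL13 and MRPL55 show how far 1 array moved a value. MRPL13 had 199, 245 and 67.6 in laminitis, against 270, 256 and 236 in normal tissue, a difference of -0.77 ± 0.47. Without laminitis replicate 4 it was -0.20. MRPL55, the counterpart of bacterial L31, had 127, 135 and 64.2 in laminitis, against 56.2, 36.2 and 109 in normal tissue, at 0.77 ± 0.47, or 0.40 without normal replicate 3 and 1.20 without normal replicate 4. MRPL32, which is matured by the m-AAA protease before it joins the ribosome, had 127, 172 and 144 in laminitis, against 135, 88.2 and 137 in normal tissue. Its groups overlapped, with a difference of 0.32 ± 0.25, or 0.11 without normal replicate 3.

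The mitochondria-specific proteins of the large subunit held both extremes. MRPL37 had 200, 273 and 425 in laminitis, against 76.5, 78.0 and 200 in normal tissue. Normal replicate 4 reached the lowest laminitis value, and the difference was 1.43 ± 0.45, or 2.69-fold, with a 95% interval from 0.36 to 2.50 (limma adjusted p 0.445). The signals of normal replicates 2 and 3 lay below their arrays' medians, and with 64 added to every signal the difference was 1.02. MRPL43 had 30.3, 155 and 48.4 in laminitis, against 136, 116 and 141 in normal tissue. Laminitis replicate 3 was the highest of all 6 arrays while replicates 1 and 4 were the lowest, at a difference of -1.10 ± 0.56 (limma adjusted p 0.577), which became -1.77 without replicate 3 and -0.56 with 64 added. A second, dimmer MRPL43 probe set that was not tested gave 0.21.

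MRPL52 had 601, 685 and 462 in laminitis, against 454, 444 and 246 in normal tissue. The groups were apart by a small margin between laminitis replicate 4 and normal replicate 2, and the difference was 0.65 ± 0.30 (limma adjusted p 0.553), or 0.36 without normal replicate 4. MRPL48 had 138, 166 and 169 in laminitis, against 185, 200 and 180 in normal tissue, also apart, at -0.26 ± 0.19 (limma adjusted p 0.674), or -0.17 without laminitis replicate 1. Other members of this set lay closer to 0. MRPL58, a peptidyl-tRNA hydrolase built into the ribosome, differed by 0.15 ± 0.20, MRPL44, which carries a ribonuclease III fold, by 0.082 ± 0.23 (-0.11 without laminitis replicate 3), and MRPL50 by -0.060 ± 0.17. MRPL50 had 174, 160 and 159 in laminitis, against 173, 170 and 170 in normal tissue, the smallest within-group SD of the 53 genes at 0.053 on the log2 scale, where the median member had 0.30.

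In the small subunit MRPS11, a platform protein, had the smallest unadjusted p. Its signals were 139, 129 and 84.7 in laminitis, against 169, 165 and 205 in normal tissue. All laminitis arrays lay below all normal arrays, at -0.64 ± 0.25 (limma adjusted p 0.494), or -0.41 without laminitis replicate 4. MRPS2, another conserved protein, had 175, 223 and 242 in laminitis, against 335, 240 and 273 in normal tissue, at -0.41 ± 0.23 (limma adjusted p 0.599). Laminitis replicate 4 lay just above normal replicate 3, so the groups overlapped. MRPS35, a mitochondria-specific protein, had 103, 150 and 154 in laminitis, against 166, 166 and 183 in normal tissue. It was apart, as was the conserved MRPS9 with 134, 159 and 162 in laminitis, against 167, 165 and 214 in normal tissue. The differences were -0.36 ± 0.22 for MRPS35 and -0.26 ± 0.20 for MRPS9 (limma adjusted p 0.635 and 0.715). MRPS35 was at -0.17 without laminitis replicate 1, and MRPS9 at -0.13 without normal replicate 4.

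The most positive values in the small subunit moved in both directions when 1 array was left out. The highest were 1.40 for MRPS5 and 1.04 for MRPS34 without normal replicate 3. MRPS15 reached 0.73 without normal replicate 2, and MRPS6 reached 0.66 without laminitis replicate 4. MRPS5 had 184, 136 and 131 in laminitis, against 139, 172 and 22.8 in normal tissue. The single low array, normal replicate 4, carried the difference of 0.86 ± 0.73, which was -0.061 without it. MRPS15 had 293, 424 and 374 in laminitis, against 326, 145 and 324 in normal tissue, at 0.53 ± 0.36, or 0.14 without the low normal replicate 3. MRPS6 had 247, 205 and 129 in laminitis, against 91.8, 154 and 202 in normal tissue, with a wide spread in both groups, at 0.40 ± 0.37, or 0.082 without normal replicate 2. MRPS34 had 194, 218 and 251 in laminitis, against 44.5, 317 and 256 in normal tissue, at 0.52 ± 0.70, and the sign turned to -0.37 without the low normal replicate 2. MRPS5 and MRPS34 had the largest within-group SDs of the members, 1.15 and 1.11 on the log2 scale.

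Mammalian mitochondria have several proteins derived from bacterial S18, and 2 of them were measured. MRPS18A, which sits in the large subunit despite its name, had 370, 437 and 519 in laminitis, against 340, 405 and 304 in normal tissue, at 0.34 ± 0.22 (limma adjusted p 0.649), or 0.21 without laminitis replicate 4. MRPS18B, in the small subunit, had 378, 317 and 308 in laminitis, against 495, 304 and 348 in normal tissue. Its difference was -0.17 ± 0.24 (limma adjusted p 0.840), or 0.031 without normal replicate 2. The groups overlapped for both, and the difference between these paralogues was not tested.

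**Figure D2:**
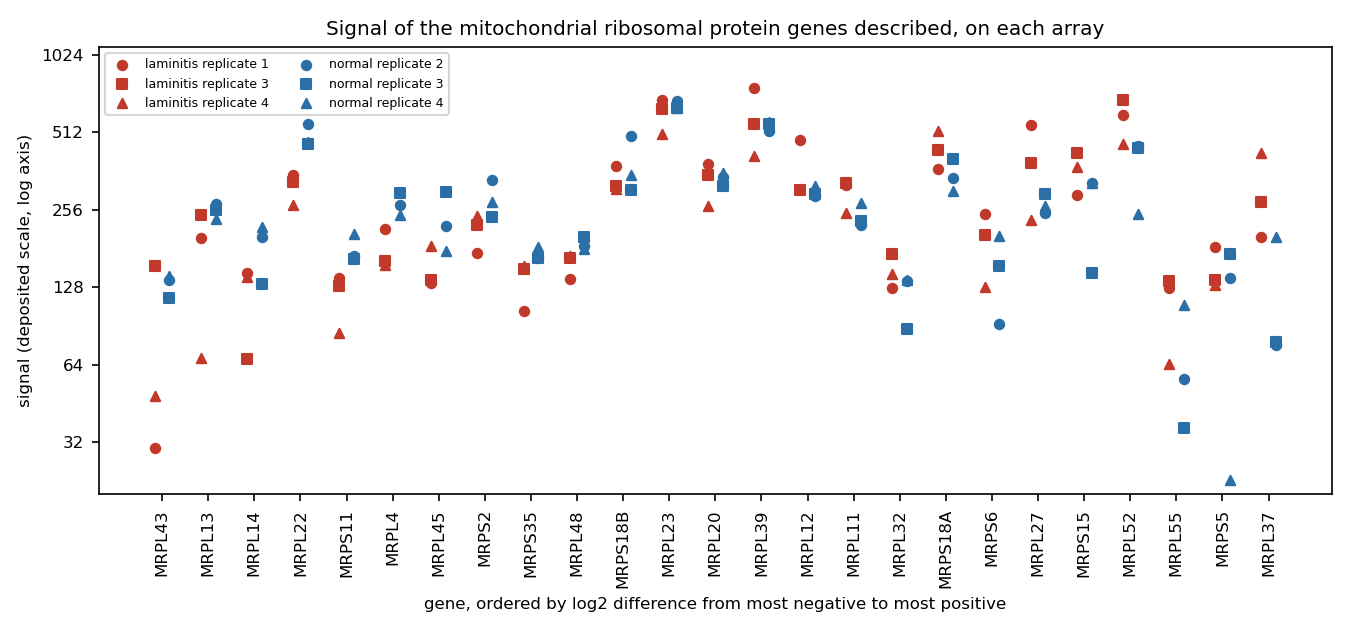
Deposited signal on each array (y axis, log scale) of 25 genes ordered from the most negative to the most positive log2 difference, with laminitis arrays left of normal arrays for each gene and a marker shape for each replicate. MRPL22, MRPL4, MRPS11, MRPS35 and MRPL48 have every laminitis point below every normal point and MRPL52 has every laminitis point above, while MRPL43, MRPL13 and MRPS5 each have 1 or 2 arrays far from the rest.

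Grouped by subunit, with MRPS18A counted in the large subunit, 19 of 36 large-subunit genes and 5 of 17 small-subunit genes had a positive difference. The medians were 0.034 for the large and -0.095 for the small subunit. Proteins conserved in bacteria had a median of -0.0047 in the large subunit (10 of 21 positive) and -0.048 in the small (4 of 11 positive). Mitochondria-specific proteins had 0.069 in the large subunit (9 of 15 positive) and -0.13 in the small (1 of 6 positive). MRPS18A and MRPS18B, though derived from bacterial S18, were counted among the mitochondria-specific proteins. Over all tested genes 46.4% were positive, so the small-subunit share of 29.4% lay below that and the large-subunit share of 52.8% above. These are descriptions, with no test of the difference between subunits. The small-subunit median was between -0.20 and -0.080 with 1 array left out, while that of the large subunit changed sign to -0.020 without laminitis replicate 1 and to -0.037 with the replicate number as a block.

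Several members had more than 1 probe set, 14 genes in all, and these did not always give the same sign. The 3 tested MRPL39 probe sets, from brightest to dimmest, gave 0.043 ± 0.26, -0.18 ± 0.23 and -1.01 ± 0.84. On the brightest MRPL39 had 763, 552 and 416 in laminitis, against 519, 550 and 561 in normal tissue, so that laminitis replicate 1 was the highest array and laminitis replicate 4 the lowest. MRPL20 had 387, 349 and 266 in laminitis, against 345, 318 and 356 in normal tissue, at -0.040 ± 0.21, while its other tested probe set gave 0.20 ± 0.33. The MRPL23 probe sets gave values from -0.11 to 0.019. These were the 3 members whose tested probe sets differed in sign, and the groups overlapped on each of these probe sets. With probe sets too dim to test included, signs also differed for MRPL14, MRPL43, MRPL46, MRPL57, MRPS9, MRPS14, MRPS28 and MRPS35. The untested probe set gave 1.20 for MRPS35, against -0.36 on the tested one, and 0.16 for MRPL14, against -0.70. MRPL30, MRPS2 and MRPS34 kept the same sign. Each probe set is a bovine sequence read with horse RNA, and what sets probe sets of a gene apart was not tested.

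The 14 genes too dim to test were MRPL15, MRPL16, MRPL18, MRPL34, MRPL36, MRPL41, MRPL46, MRPL57, MRPS14, MRPS22, MRPS25, MRPS27, MRPS30 and MRPS36. Their group means ran from 9.85 to 98.0. The brightest by mean log2 was MRPS30, a protein of the large subunit, with 74.1, 80.5 and 95.1 in laminitis, against 69.8, 113 and 91.8 in normal tissue. Of the 14, 11 had a positive and 3 a negative log2 difference, and only MRPL16 had its groups apart, with 39.5, 32.7 and 30.9 in laminitis, against 28.8, 17.2 and 12.9 in normal tissue. MRPS36, which belongs to the 2-oxoglutarate dehydrogenase complex and is named as a ribosomal protein, had 24.6, 4.38 and 12.3 in laminitis, against 4.91, 7.38 and 17.2 in normal tissue. The same counts were not made over the other genes too dim to test, so these counts have no background. With all 67 genes the median log2 difference was 0.043, with 35 positive, whereas the 53 tested genes gave -0.028. Over all 9155 genes without the filter the median was -0.040. No value was marked as above background, so these dim signals have no firm level.

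Across arrays the members did not separate the groups. On laminitis replicates 1, 3 and 4, 30, 31 and 20 of the 53 tested genes lay above their own mean over the 6 arrays, against 31, 25 and 32 on normal replicates 2, 3 and 4. Laminitis replicate 4 had the lowest count. It was the lowest of the 6 arrays for 15 members and the highest for 4, while laminitis replicate 1 was the highest for 15 and the lowest for 11. The median deviation from the gene's own mean was 0.056, 0.084 and -0.073 on the laminitis arrays and 0.045, -0.0053 and 0.041 on the normal arrays. The laminitis arrays thus spanned the normal ones. The median within-group SD of a member was 0.30 on the log2 scale, next to 0.32 over all tested genes.

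**Figure D3:**
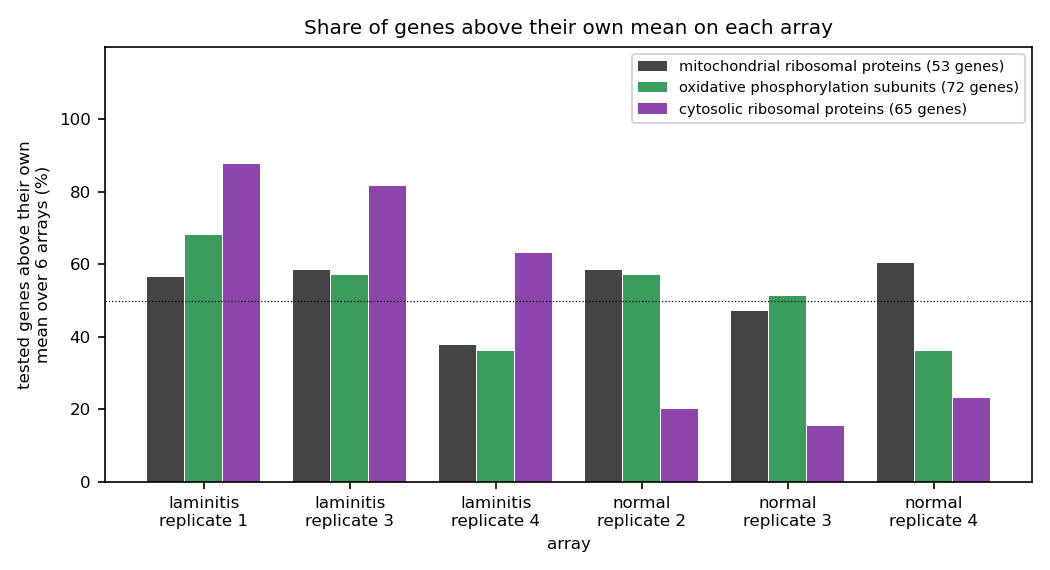
Percentage of tested genes above their own mean over the 6 arrays (y axis) on each array, with laminitis arrays left of normal arrays, for mitochondrial ribosomal proteins, oxidative phosphorylation subunits and cytosolic ribosomal proteins. Mitochondrial ribosomal proteins lie between 37.7% and 58.5% in laminitis and between 47.2% and 60.4% in normal tissue, whereas cytosolic ribosomal proteins are at 63.1% or more on the laminitis arrays and at 23.1% or less on the normal arrays on the deposited scale.

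The difference of a gene depended on its brightness, so members were set beside genes of like brightness. The quartiles of the tested members' mean log2 signals were 7.35 and 8.22, a range that held 2009 tested genes with a median difference of -0.069, of which 40.8% were positive, next to 45.3% of the members. In this range 91.2% were within 1.5-fold, next to 79.2% of the members, which also include dimmer and brighter genes. Groups were apart for 5.62% higher and 10.1% lower, next to 1.89% and 11.3% of the members. Cytosolic ribosomal proteins, the subunits of the ribosome that makes the imported proteins, were much brighter, and on the deposited scale 55 of 65 were positive with a median of 0.31, which became -0.037 after quantile normalization and -0.11 after cyclic loess. The 236 other genes in the middle brightness range of the cytosolic set had a median of 0.33, with 80.9% positive. Cytosolic ribosomal protein genes also gave 0 calls in limma over all genes, with 11 at an unadjusted p under 0.05, all higher. That is 16.9% of the set, where all tested genes had 5.26% and the 236 genes of like brightness 27.5%. Groups were apart with laminitis above for 38 cytosolic genes, 58.5%. The 236 genes of like brightness had 31.8% and all tested genes 8.71%. RPS12 had 8377, 8631 and 7797 in laminitis, against 5435, 4604 and 4415 in normal tissue, at 0.78 ± 0.19 (limma adjusted p 0.322), and RPL4 differed by 0.68 ± 0.18 (limma adjusted p 0.345). The members' median was -0.0078 after quantile normalization and 0.022 after cyclic loess, and the difference between the cytosolic and mitochondrial sets was not tested.

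**Figure D4:**
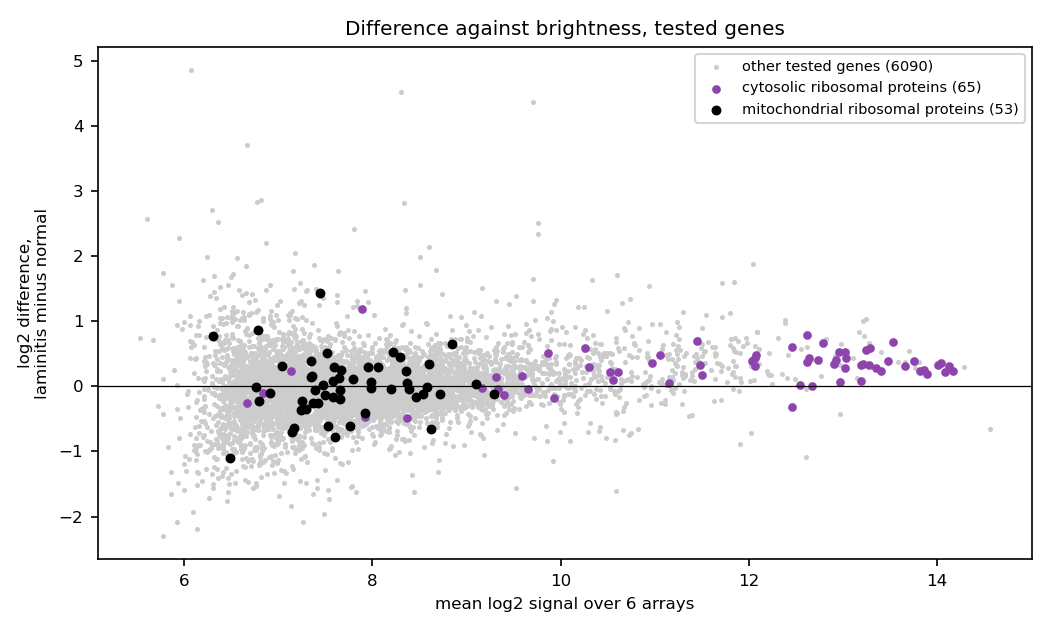
Log2 difference (laminitis minus normal, y axis) against mean log2 signal over the 6 arrays (x axis) for 6143 tested genes, with 53 mitochondrial ribosomal protein genes in black and 65 cytosolic ribosomal protein genes in purple. The mitochondrial set lies between 6.31 and 9.29 on the brightness axis and scatters on both sides of 0, while most of the cytosolic set lies to the right and above 0 on the deposited scale.

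Subunits of oxidative phosphorylation, which combine mitochondrially made proteins with imported ones, had a median of 0.0084 over 72 tested nuclear genes, with 39 positive and 0 called by limma over all genes. UQCRB of complex III had 121, 125 and 131 in laminitis, against 183, 200 and 186 in normal tissue, at -0.59 ± 0.18 (limma adjusted p 0.402). NDUFB1 of complex I had 282, 257 and 278 in laminitis, against 198, 210 and 198 in normal tissue, at 0.43 ± 0.17, and ATP5F1B, the catalytic beta subunit of ATP synthase, differed by 0.49 ± 0.20. Groups were apart for each of these genes, in opposite directions. In the whole set groups were apart for 3 genes in each direction, 4.17% each, next to 8.71% higher and 8.35% lower over all tested genes. Its median was between -0.038 and 0.094 with 1 array left out.

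Other genes of mitochondrial translation likewise gave 0 calls in limma over all genes. A list of mitoribosomal subunits under other symbols had a median of -0.11 over 5 tested genes (-0.0097 without laminitis replicate 4). It also counts OXA1L, the membrane insertase at the tunnel exit, which is not a subunit and was at 0.18 ± 0.20. PTCD3 was at -0.24 ± 0.34 and DAP3 of the small subunit at -0.11 ± 0.19. All 4 tested translation factors were positive, at a median of 0.20 (0.096 without laminitis replicate 1, 0.39 without laminitis replicate 4), with GUF1 at 0.41 ± 0.28 and the elongation factor TUFM at 0.25 ± 0.22, and none had its groups apart. Of 11 tested genes for charging mitochondrial tRNAs, 9 were negative at a median of -0.25. Positive ones were 18.2% of this list, next to 46.4% of all tested genes. The list is mostly aminoacyl-tRNA synthetases, which load tRNAs with amino acids, and includes GARS1 and KARS1, which also serve the cytosol. It also holds GATB and GATC, both negative, which are subunits of an amidotransferase and not synthetases. CARS2 had 210, 245 and 245 in laminitis, against 328, 330 and 309 in normal tissue, with groups apart and a difference of -0.47 ± 0.18 (limma adjusted p 0.494), and VARS2 differed by -0.47 ± 0.28.

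Of 16 assembly factors and rRNA-modifying enzymes 9 were positive, at a median of 0.098, which was -0.0080 without normal replicate 4, 0.0051 without laminitis replicate 3 and -0.032 when a gene's tested probe sets were averaged. METTL15, a methyltransferase of the small-subunit rRNA, had 153, 112 and 146 in laminitis, against 75.9, 82.6 and 77.4 in normal tissue, with groups apart and a difference of 0.79 ± 0.20 (limma adjusted p 0.345). The small-subunit rRNA dimethyltransferase TFB1M had 250, 191 and 212 in laminitis, against 185, 126 and 159 in normal tissue, at 0.48 ± 0.23 (limma adjusted p 0.551). Normal signals of METTL15 lay below their arrays' medians, so it passed the filter only through the laminitis arrays, where it was high. Its difference and the separation of its groups are tied to that filter and are given as description only. For mitochondrial DNA maintenance and transcription the median of 9 genes was 0.23 (0.086 without laminitis replicate 4, 0.11 without normal replicate 4), with POLG, the mitochondrial DNA polymerase, at 0.73 ± 0.34 and the RNA helicase SUPV3L1 at 0.28 ± 0.19. The 17 tested import genes had a median of 0.088 (0.012 without normal replicate 4, 0.31 without laminitis replicate 4), with the intermembrane chaperone TIMM10 at 0.58 ± 0.27 and TOMM5 at -0.41 ± 0.23.

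PPRC1, a coactivator related to PGC-1alpha that acts on nuclear genes for mitochondrial proteins, had the smallest unadjusted p of these lists. On the brightest of its 4 probe sets, signals were 508, 601 and 491 in laminitis, against 271, 251 and 296 in normal tissue. The laminitis values were all above the normal ones, at 0.97 ± 0.19 (limma adjusted p 0.238), so PPRC1 did not pass over all genes either. Of the other tested regulators, YY1 was at 0.52 ± 0.29, MYC at 0.024 ± 0.23 and NRF1 at -0.32 ± 0.24. PPARGC1A, which encodes PGC-1alpha, was at -0.58 ± 0.50, and each of these had groups that overlapped. The median of the 5 tested regulators was 0.024, and between -0.13 without laminitis replicate 3 and 0.15 without laminitis replicate 1.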

How the data were processed

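The authors deposited an intensity on a linear scale for each probe set of each array, brought to a common level: the mean after trimming 2% at each end was 150.02 or 150.03 on every array. GCRMA is named in the submitters' processing notes without a version, but values down to 0.0386 on a linear scale have another form, so the scaling step is not known. Per the labels' protocols, cRNA was made with oligo(dT) priming.

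From 24016 probe sets besides controls, log2 values without an offset were fitted for the 12519 tested probe sets by limma (version 3.58.1, R version 4.3.3) using lmFit followed by eBayes. Tests were two-sided, and p-values were adjusted by Benjamini-Hochberg across these probe sets at a threshold of 0.05. Gene symbols are bovine and can be old, and 64 of the 67 member symbols are in the horse RefSeq table. The procedure was tested on simulated data. No 2 arrays held identical values. Members and gene lists were chosen with earlier results of these data known. Genes given in full are the 10 members of smallest p in each direction, those at an unadjusted p under 0.05, the 3 brightest, MRPL12, the S18 family and members whose tested probe sets differ in sign, with 2 or 3 genes of smallest p per related list. MRPS9, MRPS34, MRPL50 and the other members with a single value were added after their values were seen, as were PPARGC1A and MYC. MRPS12 and MRPS18C were not analysed here.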

Additional observations from a re-analysis of the deposited data

How the results depend on the processing

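The 19 alternatives were other filters on dim probe sets, added offsets, normalizations, variance models, a block, the mean over a gene's probe sets and leaving out each array. Members called stayed at 0 in each of them, and all tested genes gave 0 calls except 6 with a filter above the median on all 6 arrays, 4 with an intensity trend and robust variance, and 0 to 2 with 1 array left out (2 without laminitis replicate 4). Replicate numbers 3 and 4 occur in both groups, and the labels do not say what the number stands for. Deviations from the group means correlated at -0.017 and -0.031 for these pairs. With 3 arrays per group such values cannot tell whether a pair shares a horse or a batch. With the replicate block the members' median was -0.095, and 0 members in place of 3 were lower at an unadjusted limma p under 0.05. The members' median was 0.043 without a filter and 0.055 after centring on the array median, where all genes had -0.040 and 0.054. The small-subunit median was -0.020 after quantile normalization, -0.013 after centring, -0.015 after cyclic loess and -0.20 to -0.080 with 1 array left out. Of 466 values of the 25 genes given in full, 454 kept their direction and stayed uncalled. The 12 that reversed were MRPS6 with the replicate block (-0.12), MRPL39 after quantile normalization (-0.042), cyclic loess (-0.023), the replicate block (-0.21) and averaging of probe sets (-0.38), MRPL20 after centring (0.043) and averaging (0.082), and with 1 array left out MRPS5 (-0.061 to 1.40), MRPL23 (-0.21 to 0.014), MRPL39 (-0.18 to 0.26), MRPS18B (-0.32 to 0.031) and MRPL20 (-0.16 to 0.12). The cause was not tested. With 3 arrays per group and no detection calls, differences of dim genes are the least certain.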
